A study of Mus musculus with 19 samples.

Results

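Exome sequencing of A223 gave 20540 variant calls on chromosome 7 (Chr 7), and 13240 of them, or 64.5%, lay in a pair of 10 Mb blocks that run from 15 to 25 Mb and from 40 to 50 Mb. The blocks were chosen by the density of exome calls, and every position there with an exome genotype other than the reference was taken as a member. They held 5356 and 7884 calls, which is 6.31% of the 209790 exome calls of the whole genome. The remainder of Chr 7 held 7300 calls and the other chromosomes 189250.

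A223 is a mouse squamous cell carcinoma line that the labels call C57BL/6-derived. Its cells were grown in vitro, with no host mouse and no treatment named. DNA from these cells was enriched for exons and read in 1 exome library, and polyA RNA was read in 1 RNA library. The series of 19 samples otherwise holds libraries of T cells, which were not used here. No library of normal C57BL/6 DNA was analysed here, so inherited differences from the reference and changes gained by the tumour cannot be told apart. With 1 library of each kind there is no replicate, and all intervals cover counting error only.

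A variant call is a position where the reads differ from the reference genome, which for the mouse was made from the strain C57BL/6J. A homozygous call carries the alternate base in all copies that were read, and a heterozygous call carries both bases. A missense call changes an amino acid, a synonymous call changes a codon without changing the amino acid, and a frameshift or stop call breaks the reading frame or ends the protein early. The proximal end of mouse Chr 7 is known for large families of genes that lie next to each other as near copies. They include the Vmn1r receptors, which detect pheromones in the vomeronasal organ, and the Mrgpr receptors of sensory neurons that act in itch. The Psg genes encode pregnancy-specific glycoproteins of the placenta, Ceacam genes encode related adhesion proteins, Klk1b genes encode kallikrein proteases, Zfp genes encode zinc finger proteins, and Nlrp genes encode proteins with leucine-rich repeats. Short reads of near copies can be placed on the wrong copy, so calls in these families are uncertain, and the share of misplaced reads was not tested.

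The calls reached the stretch just before the start of many genes. The RefSeq table of GRCm38.p6 gives windows from 250 bases before to 50 bases after the start, and 87 of 609 such windows in the blocks held a call (14.3%). In the remainder of Chr 7, 57 of 2181 windows did (2.61%). The blocks were chosen for dense calls, so this difference follows from the choice and is a description. Within the blocks, Klk windows held a call in 15 of 28 cases and Ceacam or Psg windows in 14 of 24, while Vmn1r windows did in 9 of 83 and those of genes outside the families in 40 of 403. Families were matched by the start of the symbol, so the vomeronasal receptor gene V1rd19, with 5 calls, counts outside the families here and in the search below. The 250 bases before the start are shown for 3 kallikrein genes, because they are near copies that differ in what was called, and for Bcat2, the mitochondrial branched-chain aminotransferase, as a gene outside the families. All 4 genes lie on the plus strand. Each runs 5′ to 3′ on the strand of the gene, with capitals for the reference bases that were called as changed.

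Klk1b1 (chr7:43966501-43966750, strand +, GRCm38.p6): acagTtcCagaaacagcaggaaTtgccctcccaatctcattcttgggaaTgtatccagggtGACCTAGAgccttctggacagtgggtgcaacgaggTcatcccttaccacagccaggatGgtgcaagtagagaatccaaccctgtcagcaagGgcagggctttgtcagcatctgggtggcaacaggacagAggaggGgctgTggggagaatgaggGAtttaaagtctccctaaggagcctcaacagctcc

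Klk1b26 (chr7:44012428-44012677, strand +, GRCm38.p6): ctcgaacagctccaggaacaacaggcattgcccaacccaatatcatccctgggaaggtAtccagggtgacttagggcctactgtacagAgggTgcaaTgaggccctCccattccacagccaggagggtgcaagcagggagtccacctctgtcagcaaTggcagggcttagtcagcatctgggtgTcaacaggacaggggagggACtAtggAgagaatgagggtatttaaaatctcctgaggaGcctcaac

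Klk1b16 (chr7:44137040-44137289, strand +, GRCm38.p6): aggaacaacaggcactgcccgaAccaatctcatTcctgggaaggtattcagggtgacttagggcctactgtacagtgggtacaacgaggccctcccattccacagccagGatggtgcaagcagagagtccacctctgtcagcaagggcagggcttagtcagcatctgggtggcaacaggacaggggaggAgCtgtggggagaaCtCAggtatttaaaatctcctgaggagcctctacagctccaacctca

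Bcat2 (chr7:45569903-45570152, strand +, GRCm38.p6): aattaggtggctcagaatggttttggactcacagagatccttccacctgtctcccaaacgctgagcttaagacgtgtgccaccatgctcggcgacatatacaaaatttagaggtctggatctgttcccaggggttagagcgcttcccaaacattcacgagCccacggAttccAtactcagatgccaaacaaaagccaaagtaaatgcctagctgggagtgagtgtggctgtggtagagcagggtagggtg

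In capitals, a deletion shows the deleted bases and an insertion shows the base before it. Klk1b1 held 13 calls in these 250 bases, all homozygous. Klk1b26 held 12, of which 4 were homozygous and 8 heterozygous, and Klk1b16 held 8, all homozygous. The reference sequences of Klk1b1 and Klk1b16 were the same at 87.6% of aligned bases, and those of Klk1b16 and Klk1b26 at 90.7%. Bcat2 held 3 homozygous single-base calls, C161G, A168G and A173G, counted from 1 at the first base printed.

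For single-base calls in these windows, the 21 bases around the call were built with the alternate base and searched for in the windows of all other genes. Among the family genes, 24 of 157 alternate sequences occurred word for word in the window of another gene (15.3%, exact 95% interval 10.0 to 21.9). Outside the families, 0 of 67 did (exact 95% interval 0 to 5.36). The same search with the unchanged reference letters found 36 of 157 in the families and 7 of 67 outside. In the Klk windows, alternate letters matched at 10 of 50 homozygous and 4 of 26 heterozygous calls, and reference letters at 8 of 50 and 14 of 26. At some calls the windows of neighbouring genes overlap, as at 19508575 for Bloc1s3 and Trappc6a. There the reference letters match by position alone, which alternate letters cannot do, so the counts of both searches cannot be compared directly. By genotype, alternate letters in the families matched at 19 of 122 homozygous and 5 of 35 heterozygous calls. Reference letters matched at 20 and 16 of them. A match describes the letters and does not show where a read came from.

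Density was very uneven inside the blocks. Per 1 Mb window, the blocks held 662 calls on average, with a median of 490 and a range of 9 to 2170. The remainder of Chr 7 held 59.3 per Mb, with a median of 10 over 123 windows. Of the 20 block windows, 10 had more than 500 calls and together held 93.0% of the calls, while 8 had fewer than 100. Outside, 2 windows had more than 500. Counted per protein-coding gene of the RefSeq annotation, the blocks held 26.6 calls and the remainder 4.78. These densities chose the blocks and are a description without a test, and the regions captured by the exome kit are not given in the sources used here.

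The borders of the blocks were sharp on some sides and not on others. The window starting at 14 Mb had 2 calls and that at 15 Mb had 28, and calls rose to 375 at 16 Mb. The window at 24 Mb had 870 calls, and the next one, at 25 Mb, had 3. Before the second block, the windows at 38 and 39 Mb held 526 and 349 calls although they lie outside it, and the window at 40 Mb held 71. The window at 49 Mb held 176 and that at 50 Mb held 30.

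Between 20 and 23 Mb the first block was nearly empty, with 61, 20 and 9 calls in 3 windows. That stretch holds 27, 23 and 28 protein-coding genes by RefSeq. Calls there included those in Vmn1r101, Vmn1r119, Vmn1r151 and Vmn1r158, which belong to a family of near copies. Whether short reads could be placed in that stretch was not tested, so few calls there do not show few differences. The longest stretch without a call in this block ran for 1072 kb, from 21427449 to 22499386. In the second block the densest window, at 46 Mb, held 2170 calls and 2146 of them were homozygous. It holds 21 protein-coding genes, among them Abcc8 and Kcnj11, the 2 subunits of the potassium channel that controls insulin release, with 282 and 25 calls.

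**Figure D1:**
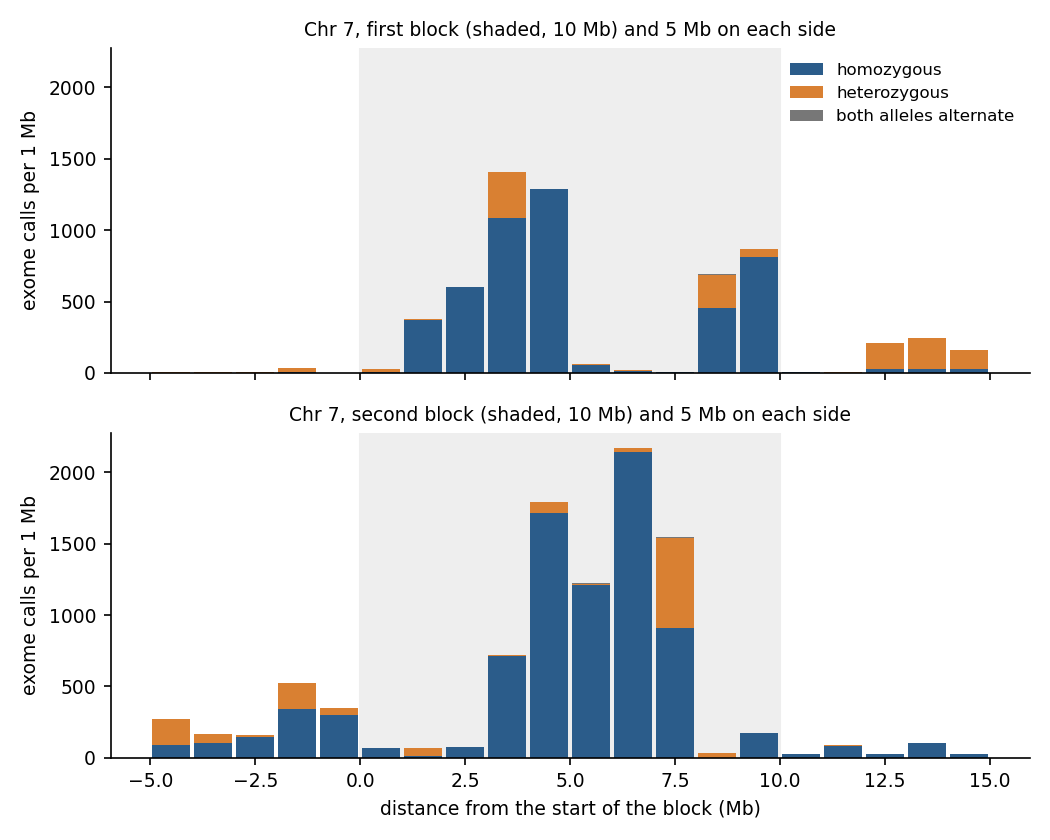
Exome calls per 1 Mb window by genotype, in each block (shaded) and 5 Mb on both sides, against the distance from the start of the block in Mb. Dense windows are mostly homozygous, up to 2170 calls, and the middle of the first block is nearly empty.

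Calls in the blocks were mostly homozygous. The share was 88.6% (11718 of 13224, exact 95% interval 88.1 to 89.1), against 57.4% in the remainder of Chr 7 (4187 of 7294, 56.3 to 58.5). The difference of 31.2 percentage points had a p-value in the two-sided Fisher's exact test below the smallest number that the software can write. Neighbouring calls are linked and are not independent, so every p-value from calls is too small. High homozygous shares also occurred elsewhere on Chr 7. The 9 windows from 50 to 58 Mb, directly after the second block, held 795 calls and 787 of them were homozygous (99.0%), and the 14 windows from 66 to 79 Mb held 1236 calls with 1217 homozygous (98.5%). These stretches were picked after their values were seen, and they show that a high share was not particular to the blocks. Another 16 block calls carried 2 different alternate alleles and were left out of these shares.

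Homozygous calls formed long unbroken runs. The longest in the first block held 900 calls in a row over 1211 kb, from 16676860 in the Ceacam15 region to 17887412 in Gm5155, and crossed 17 genes with a coding call. In the second block, 1708 homozygous calls followed each other over 702 kb, from 46038815 in Nomo1 to 46740603 at Saa1. This run crossed 12 genes with a coding call, Abcc8, Kcnj11 and the muscle regulator Myod1 among them.

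Heterozygous calls sat in a few places. Of the 1506 heterozygous block calls, 1355 (90.0%) lay in 23 of the 152 windows of 0.1 Mb that held any call, and 84 of these windows held none. The window at 47.9 Mb, led by the itch receptor gene Mrgpra4, had 225 heterozygous calls out of 235. The windows led by Psg19 (18.7 Mb), Mrgpra3 (47.5 Mb) and Nlrp4e (23.3 Mb) had 148, 120 and 87. Gene models of no family led such windows too, as Gm5733 did at 47.7 Mb with 157 heterozygous calls of 461.

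Heterozygous coding calls were mostly in some of the gene families. Of the 380 heterozygous missense and synonymous calls in the blocks, 362 (95.3%) were in the 15 families searched for by the start of the gene symbol. Genes outside the families were heterozygous at 2.24% of such calls (exact 95% interval 1.33 to 3.52, 804 calls). Mrgpr genes were heterozygous at 81.0% (75.6 to 85.6), Vmn1r genes at 46.4% (37.4 to 55.5) and Nlrp genes at 46.3% (32.6 to 60.4). Ceacam and Psg genes stood at 15.9%, Zfp genes at 10.3% and Klk genes at 4.48%. The families Siglec (22 calls), Saa (25), Kcn (24), Pnmal (19) and Vmn2r (3) had no heterozygous call. All 10 calls of Obox6, an oocyte homeobox gene, were heterozygous. Outside the blocks on Chr 7, genes of no family were heterozygous at 66.3% (62.2 to 70.1). The Mrgpr share hides a split by gene, seen when calls of every class are counted. Heterozygous were 163 of 163 calls in Mrgpra4, 77 of 123 in Mrgpra3 and 31 of 32 in Mrgprx1. Homozygous were 33 of 50 in Mrgpra6, 34 of 37 in Mrgpra2b and 30 of 30 in Mrgpra9.

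**Figure D2:**
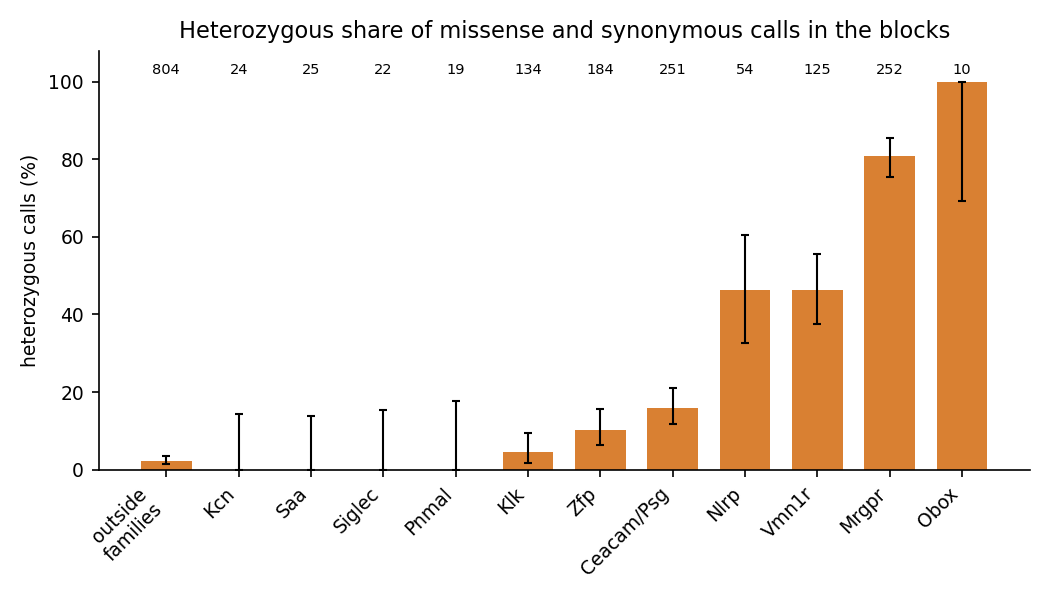
Percent of missense and synonymous exome calls in the blocks that were heterozygous, by gene family, with exact 95% intervals as bars and the number of calls above. Mrgpr, Vmn1r, Nlrp and Obox genes stand above the genes outside the families, which are at 2.24%.

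The dense blocks were also rich in coding calls. Coding calls made up 15.2% of block calls (14.6 to 15.8) and 9.82% of those in the remainder of Chr 7 (9.15 to 10.5). Introns held 32.3% of block calls, stretches up- or downstream of genes 32.3% and intergenic sequence 11.6%, against 24.4% intergenic outside. Protein-coding genes also lie more densely in the blocks, with 498 by RefSeq in 20 windows against 1527 in 123 windows outside. The part of gene density in these shares was not tested. Transitions were 66.7% of single-base changes in the blocks and 67.6% outside. The coding calls were in 242 genes, and 178 of them had a missense call.

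Missense calls were more frequent relative to synonymous ones in the blocks than in the remainder of Chr 7. The blocks held 862 missense and 1047 synonymous calls, or 0.823 missense per synonymous call (exact 95% interval 0.751 to 0.902). The remainder held 243 and 453, or 0.536 (0.457 to 0.628). The ratio of these ratios was 1.53 (two-sided Fisher's exact test, p = 3.07e-06, adjusted p = 4.61e-06 by Benjamini-Hochberg over 3 tests). The direction depended on the gene families. With all 15 families left out on both sides, a choice made after the values were seen, the blocks fell to 0.358 (212 missense, 592 synonymous) and the remainder to 0.5 (191 and 382), and the ratio of ratios reversed to 0.716 (Fisher's exact test, p = 0.0057). Without the Vmn1r, Vmn2r, Mrgpr and Zfp genes alone it was 1.14 (Fisher's exact test, p = 0.207).

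The families held 650 of the 862 missense calls (75.4%) and 455 of the 1047 synonymous calls (43.5%). Vmn1r genes had 86 missense and 39 synonymous calls, a ratio of 2.21 (1.49 to 3.31), over 20 genes. The 7 Mrgpr genes with such a call had 174 and 80, a ratio of 2.18 (1.66 to 2.87). Klk genes were at 1.44 (1.01 to 2.06) with 79 and 55, and Nlrp genes at 1.57 (0.882 to 2.86). Ceacam and Psg genes (135 and 116) and Zfp genes (99 and 85) were both at 1.16, with intervals that include 1. At the other end, genes of Kcn potassium channels had 4 missense and 20 synonymous calls, a ratio of 0.2 (0.0497 to 0.597).

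**Figure D3:**
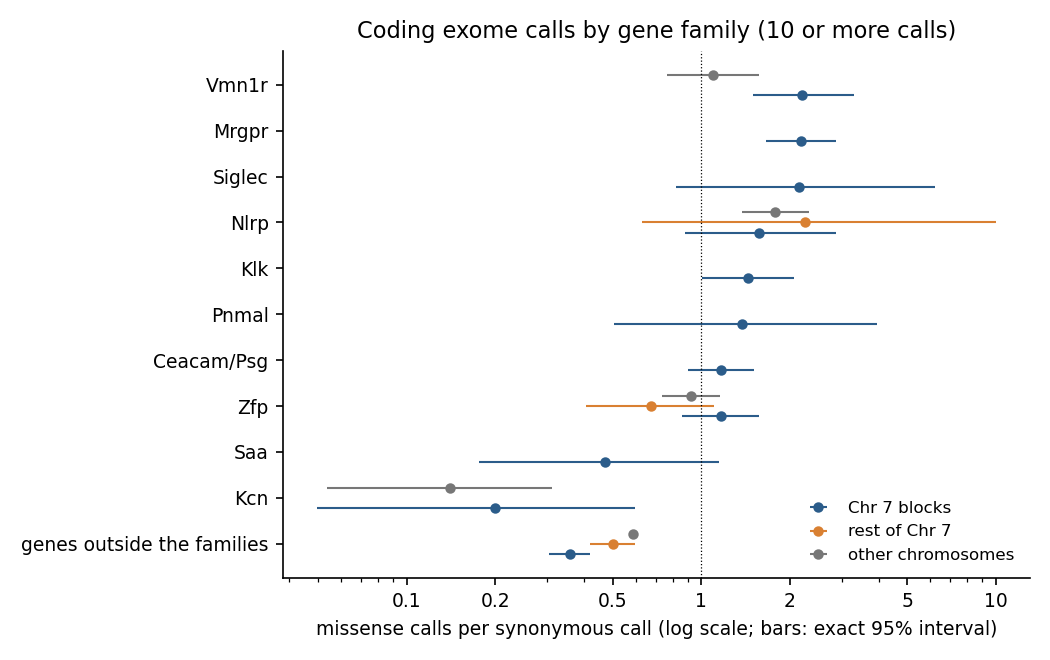
Missense per synonymous exome call on a log axis, by gene family, with exact 95% intervals, in the blocks, in the remainder of Chr 7 and on other chromosomes, where a family had 10 or more calls. Block points run from 0.2 for Kcn to 2.21 for Vmn1r, and genes outside the families are at 0.358.

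A few genes carried many of the missense calls. The 10 leading genes held 269 of them (31.2%), and all 10 belong to the families. Mrgpra4 had 83 missense calls, all heterozygous, in a protein of 313 residues. Mrgpra3 had 52, of which 44 were heterozygous, and Nlrp4e had 24, of which 16 were. The zinc finger genes Zfp112 and Zfp108 had 16 and 15, all homozygous, and Zfp93 had 16, of which 15 were homozygous. Klk1b16 had 18 and all were homozygous. Vmn1r174 had 15, all heterozygous, and Vmn1r175 had 15, of which 13 were heterozygous. Psg20 had 15, of which 12 were homozygous. Among these 10 genes, the Zfp and Klk1b genes were mostly homozygous and the Mrgpr and Vmn1r genes mostly heterozygous. Of the 178 genes with a missense call, 58 had a single one.

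Calls that would break a protein were mostly in the same families. The blocks held 57 such calls in 18 genes: 43 frameshifts, 11 stop gains, 2 stop losses and 1 start loss. Of these, 51 were in the families, 41 of them in Mrgpr genes, and 40 were heterozygous. Mrgpra3 alone had 17 and Mrgpra4 had 11. For comparison, the families held 1105 of the 1909 missense and synonymous calls of the blocks. A further 8 block calls, all homozygous, were annotated at splice sites, in Gm5155, Zfp180, Lim2, Klk1b16, Abcc8, Saal1, Gtf2h1 and Uevld. Not all of them would break a protein. Those of Klk1b16 and Gtf2h1 insert 1 base near the end of an intron, that of Zfp180 lies before the coding sequence, and that of Lim2 is placed on a non-coding transcript. Counting the splice site calls too, 25 genes held a call of these kinds.

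Many frameshift calls came in clusters. Frameshifts of the same gene and genotype that lay within 30 bases of each other formed 11 groups of several calls, holding 37 of the 43. In 7 of these 11 groups the lengths added up to a multiple of 3. Such a sum keeps the reading frame only where the calls lie on the same allele. That holds for the 2 homozygous groups, while the other 5 are heterozygous and the table gives no phase. The homozygous pair in Mrgpra9, Asn186fs and Val185fs, adds 2 bases and removes 2. A homozygous pair in Rpl7a-ps8, a ribosomal protein pseudogene, removes 1 and 5 bases, which is 2 codons, and the heterozygous pair in Obox6 adds 1 base and removes 1. In Mrgpra3, 6 heterozygous frameshifts within 33 bases add up to a loss of 3 bases. Another Mrgpra3 group, of 5 within 13 bases, has the same sum, but 1 of its insertions lies inside the stretch removed by another of its deletions, so the calls cannot all be on the same allele. Groups whose lengths did not add up to a multiple of 3 were in Mrgpra3, Mrgpra4 (2 groups) and Mrgprx1. On other chromosomes, 56 of 65 groups of several calls added up to a multiple of 3.

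Other breaks lay outside the groups of several frameshift calls, apart from the Mrgpra2b pair. Stop gains called homozygous were Gln183* in Zfp112, Ser155* in Klk1b8, Leu115* in Klk1b22 and Trp237* in Rpl7a-ps8. In RNA, the Zfp112 stop was called homozygous from 4 reads, and the other 3 positions had no reads. The other 7 stop gains were heterozygous, with Trp792* in Nlrp4e and 6 in Mrgpr genes. Mrgpra4 lost its start codon in a heterozygous call that had 103 RNA reads and no RNA call. Gm5155 carried a homozygous Trp11fs. The pheromone receptor genes Vmn1r101 and Vmn1r158, both of 307 residues, carried the same homozygous frameshift, Thr82fs, and Vmn1r119 and Vmn1r151 carried a heterozygous one each. Mrgpra6 lost its stop codon in 2 heterozygous calls and had a homozygous Gly9fs. The Mrgpra2b pair was heterozygous in exome and RNA, at 7 and 5 RNA reads. It removes 6 bases in all if both deletions lie on the same allele. In Uevld, a gene of the ubiquitin-conjugating enzyme fold, the homozygous change at the splice acceptor was also homozygous in 8 RNA reads. In Saal1 the splice donor position had 65 RNA reads and no variant was called there.

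The RNA library covered few of these calls. In the blocks, 9.18% of exome calls had 20 or more RNA reads and 67.3% had none. Among calls with 20 or more reads, the RNA genotype was the same as the exome genotype at 66.6% in the blocks (809 of 1215, 63.9 to 69.2) and at 63.5% in the remainder of Chr 7 (305 of 480, 59.1 to 67.9). The difference of 3.04 percentage points did not pass the two-sided Fisher's exact test (p = 0.234, adjusted p = 0.234). With both blocks pooled, each genotype was lower in the blocks than in the remainder of Chr 7. Homozygous calls had the same RNA genotype at 79.5% in the blocks (638 of 803) and at 87.5% outside (147 of 168, Fisher's exact test, p = 0.0173). Heterozygous calls had it at 41.2% (167 of 405) and 50.6% (158 of 312, Fisher's exact test, p = 0.0127). On the other chromosomes the shares were 77.4% of homozygous calls (3543 of 4579) and 55.5% of heterozygous calls (4455 of 8023). The homozygous share of the blocks was thus low against the remainder of Chr 7 and not against the other chromosomes. Of the calls with enough reads, homozygous ones were 803 of 1215 in the blocks and 168 of 480 outside. These splits were added after the values were seen.

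The blocks are given separately. In the block at 15 to 25 Mb, 81.1% of calls had the same genotype in RNA, 17.6 points above the remainder of Chr 7 (Fisher's exact test, p = 3.69e-07). Of its 270 calls with enough reads 250 were homozygous, and at these the RNA genotype was the same at 87.6% (219 of 250), against 87.5% in the remainder of Chr 7. In the block at 40 to 50 Mb it was 62.4%, 1.11 points below (Fisher's exact test, p = 0.728). Of the 553 homozygous calls with 20 reads in the second block, 69 were heterozygous in RNA and 65 had no RNA call. All 20 heterozygous calls of the first block with enough reads had another RNA result (0 the same, exact 95% upper limit 16.8%): 13 were homozygous in RNA and 7 had no RNA call. At least 12 of these 20 were linked missense calls of Zfp180, so they are not independent and do not describe the whole block. In the second block, 195 of 385 heterozygous calls had no RNA call. The difference between the blocks itself was not tested.

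**Figure D4:**
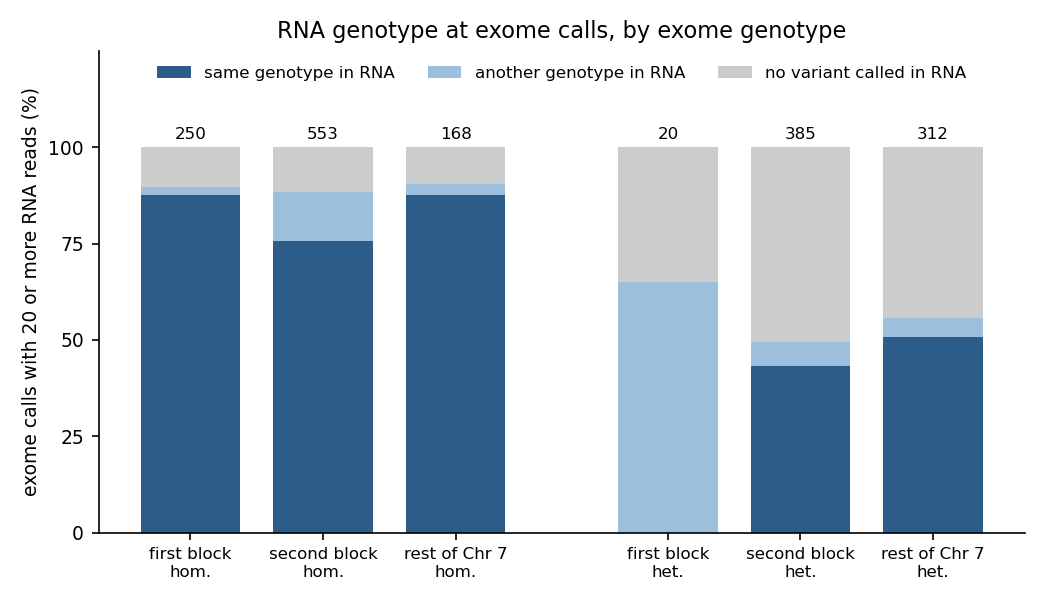
RNA genotype at exome calls with 20 or more RNA reads, in percent, by exome genotype (hom. homozygous, het. heterozygous), with the number of calls above each bar. None of the 20 heterozygous calls in the first block, at least 12 of them in Zfp180, had the same genotype in RNA. Homozygous calls had it at 75.8% or more in all 3 regions.

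Most homozygous coding calls had the same genotype in RNA, inside and outside the families. Among missense and synonymous calls outside the families, 202 of 213 homozygous ones were homozygous in RNA (94.8%, exact 95% interval 90.9 to 97.4), and inside the families 50 of 52 were (96.2%, 86.8 to 99.5). In genes of no family in the remainder of Chr 7, 79 of 80 were. Heterozygous calls of these classes had the same genotype at 48 of 127 inside the families and 1 of 4 outside, against 107 of 137 in genes of no family in the remainder of Chr 7. In Mrgpr genes, 52 of 86 homozygous calls and 75 of 208 heterozygous calls had the same genotype in RNA, counting calls of every class. The 10 genes with the most read coding calls varied. Nomo1, a membrane protein of the endoplasmic reticulum, had 19 of 21 the same, Zfp111 16 of 16, the F-box gene Fbxo46 14 of 15 and Mill2, a relative of MHC class I genes, 9 of 9. Mrgpra3 had 44 of 55 and Mrgpra4 14 of 52. Ppp1r15a had 10 of 12 and Xrcc1 8 of 11, while Zfp180 had 7 of 23 and Mrgprx1 5 of 21.

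The 10 missense calls with the most RNA reads and the same genotype in RNA were picked by these values, so their depth is no result. The median over missense and synonymous block calls was 1 read outside the families and 0 in the families. The change with the most reads was Thr154Ile in Emp3, a membrane protein linked to cell growth (45918097, exon 5), homozygous in exome and in 925 RNA reads. Ala209Thr in Vasp, which binds growing actin filaments, was homozygous in 199 reads. Ser111Trp in Pvr, the ligand of the lymphocyte receptors DNAM-1 and TIGIT, was homozygous in 127 reads. The other 7 of the 10 most read changes were all in Ppp1r15a.

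Ppp1r15a directs protein phosphatase 1 to a translation initiation factor and lets protein synthesis resume after stress. Its 657 residues held 7 missense, 3 synonymous and 2 frameshift calls. Val635Ala, Glu451Asp, Asp459Asn, Lys244Arg, Arg129His and Gly170Ala were homozygous in exome and RNA, with 657, 569, 524, 499, 409 and 304 RNA reads. Asp418Asn was heterozygous in both, with 334 reads. All 10 missense and synonymous calls had the same genotype in RNA. The pair of frameshifts, in contrast, was heterozygous in the exome and had no variant call in RNA, at 705 and 668 reads. They are deletions in exon 2, of 5 bases at 45524301 (Thr359fs) and of 109 bases at 45524307 (Ala323fs), with 1 base kept between them. Together they remove 114 bases, which is 38 codons with no remainder, if both lie on the same allele, which the table does not say. They are shown because their lengths carry this result. The letters are those of the plus strand as deposited, while the gene is read from the other strand. The capital is the base that stays and the lower case bases are deleted.

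Deletion of 5 bases (chr7:45524301-45524306): Gcactt

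Deletion of 109 bases (chr7:45524307-45524416): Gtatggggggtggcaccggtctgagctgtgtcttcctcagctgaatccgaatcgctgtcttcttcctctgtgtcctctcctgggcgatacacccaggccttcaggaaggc

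The RNA library had 0 coding calls of its own in Ppp1r15a, so no other in-frame or frameshift change was called there in RNA. Whether a caller can report a deletion of this length from RNA reads was not tested.

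**Figure D5:**
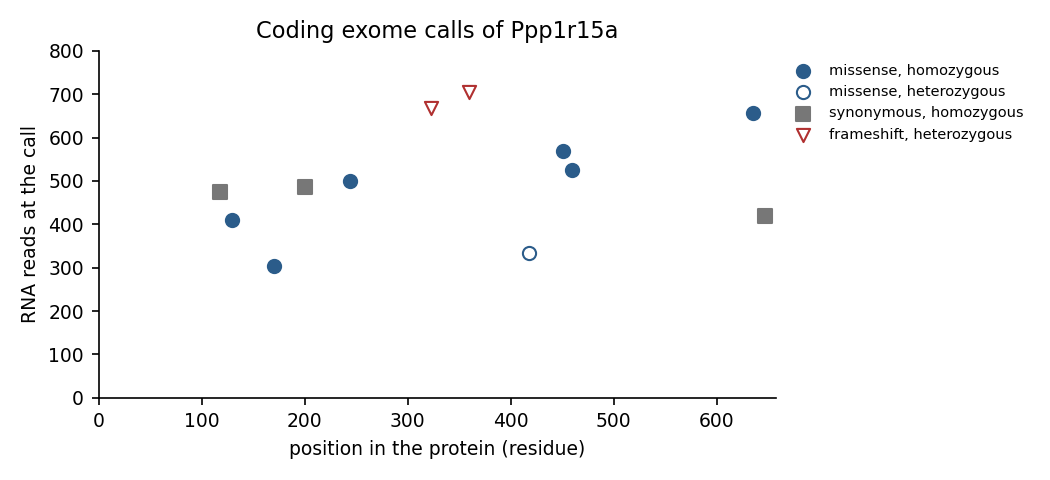
RNA reads at each coding exome call of Ppp1r15a against the residue position in the protein. The 10 missense and synonymous calls (304 to 657 reads) had the same genotype in RNA, and the 2 frameshift calls (triangles, 705 and 668 reads) had no RNA call.

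Other known genes were looked up in the blocks from lists of 40 symbols for DNA repair, cell death, immune function, lipid transport, and metabolism and growth. Of these, 26 had an exome call, 19 a coding call and 15 a missense call, with 22 missense and 90 synonymous calls in all. A coding call was thus found for 47.5% and a missense call for 37.5% of the symbols, near the block background of 242 and 178 genes against 498 RefSeq protein-coding genes (48.6% and 35.7%). Calls of the listed genes were homozygous in 951 of 956 cases, beside 94.7% of block calls outside the families. Of their 48 coding calls with 20 or more RNA reads, 40 had the same genotype in RNA, with Ftl1 at 3 of 6 and Xrcc1 at 8 of 11. For comparison, 203 of 217 missense and synonymous block calls outside the families did (93.5%), and 74.9% of all coding block calls. Symbols with no call in the blocks stayed in the list size behind these percentages, whether or not they lie in a block. The 242 and 178 genes are symbols of the variant calls and need not all be among the 498. At 47 Mb, 9 genes had a coding call and RefSeq gives 8. The background is therefore approximate.

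Among DNA repair genes, Xrcc1, the scaffold of single-strand break repair, had 82 calls and 3 homozygous missense changes. Val295Ile and His391Arg were homozygous in RNA at 39 and 34 reads, while Lys427Glu had no RNA call at 94 reads. Pold1, the catalytic subunit of DNA polymerase delta, carried Asp744Asn, homozygous in 33 RNA reads. Ercc1 had 2 calls, none of them coding. Of the cell death genes, Bax and Bcl2l12 had 4 and 1 calls and no coding one.

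Among immune genes, Plaur, the urokinase receptor, carried Glu39Lys and Trp321Arg, homozygous in RNA at 47 and 104 reads. Fcgrt, the neonatal Fc receptor, carried Tyr111Phe, which was homozygous in the exome and had no RNA call at 61 reads. Relb, a subunit of NF-kappa-B, had 7 coding calls and Pvrl2, the adhesion protein nectin-2, had 3, all synonymous. Fgf21, a hormone of fasting, had 1 synonymous call. Spib, a B cell transcription factor, carried Ser282Ala with no RNA read. Among the lipid transport genes, Apoc1 was the one with calls, and none of its 22 was coding.

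Among genes of metabolism and growth, the iron storage gene Ftl1 carried Met103Leu, homozygous in 113 RNA reads, and Tyr134Phe, heterozygous in the exome and homozygous in 33 RNA reads. Dmpk, the kinase of myotonic dystrophy, carried Ala627Thr with 84 reads, and the homeobox gene Six5 had 2 synonymous calls. Nav2, a neuron navigator, carried Asp853Gly with 81 reads, and the kinase gene Prkd2 carried Ser358Asn with 20. These 3 missense changes were homozygous in exome and RNA. The missense changes of Hif3a (1), Kcnj11 (1), Abcc8 (3) and Myod1 (2) had no RNA reads, so the RNA can say nothing about them.

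The calls with the most RNA reads and no matching RNA genotype were mostly outside coding sequence. Nlrp4e led with 3 homozygous intron calls at 3482, 2750 and 1700 reads and no RNA variant, while missense and synonymous calls of Nlrp genes had at most 3 reads. After the pair of Ppp1r15a deletions came 3 intron calls of Gtf2h1, a subunit of the transcription factor TFIIH, at 605, 598 and 416 reads. Gm9392 (396 reads) and Gm6851 (373 reads) completed the first 10.

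The label squamous cell carcinoma could be checked only weakly, since the table gives RNA reads at variant positions and no expression of whole genes. Of 12 keratinocyte markers, 4 had an exonic position: the integrin gene Itgb4 had up to 202 reads, while Dsp, Dsg3 and Cdh1 had 0 at all of 9, 8 and 15 positions. Of 4 fibroblast markers all had one, with up to 707 reads for Col1a1 and 299 for Pdgfra. The 2 leukocyte markers with an exonic position, Cd3e and Cd8a, had 0 reads. The part of these levels in the results above was not tested.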

How the data were processed

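Exome and RNA variant calls of A223 came from the deposited table, of which the 2 copies were identical and 1 was used. Per the submitters' processing notes, the tools were BWA and GATK, with versions not given; no source used here names the genome build. At 2397 of 2397 single-base calls inside RefSeq promoter windows of GRCm38.p6 the reference base was the same, and at 25.6% with positions shifted by 1 base, so positions were read as that build. The RNA depth is, per the file headers, a read count per position without normalisation. Exome depth was not used here.

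Calls were counted with pandas 2.3.3 in Python 3.11.15 and compared with two-sided Fisher's exact tests (SciPy 1.17.1), blocks against the remainder of Chr 7, with Benjamini-Hochberg values over 3 tests and exact Clopper-Pearson 95% intervals. The tests were checked on simulated data first. RNA genotypes were compared at 20 or more reads. Families were matched by symbol prefix, so Saal1 counts with Saa and V1rd19 counts outside the families. The named genes were the 10 with the most missense calls, the 10 with the most read coding calls, every gene with a truncating or splice site call, the 10 most read matching missense calls and discordant calls, and role list genes with a coding call. Of the role symbols, Nectin2 and Pvrl2 name the same gene. The members and lists were chosen with earlier results of these data known.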

Additional observations from a re-analysis of the deposited data

Results flagged for a closer look

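The RNA library called many variants in the blocks that the exome did not, and these enter no comparison above. The window starting at 47 Mb, which holds most of the Mrgpr genes named above, had 8487 RNA-only calls, 50.2% of the 16901 in both blocks. The other block windows had at most 1665. In this window 50.4% of RNA-only calls were heterozygous, against a median of 3.38% in the others. The next window, at 48 Mb with Mrgprx1, was at 44.9% of 187 calls and that at 15 Mb at 25.7% of 35. In the 47 Mb window the median depth was 23 reads. Of its RNA-only calls, 8210 were in introns, up- or downstream of genes or between genes, and 109 were coding. The exome of the same window had 1547 calls. These calls were listed because no comparison uses them, without a test, and no cause was tested.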

How the results depend on the processing

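The higher homozygous share of the blocks kept its direction and stayed past the threshold in all 9 alternatives, at 30.3 to 47.6 percentage points. The ratio of missense per synonymous ratios stayed on its side in 9 alternatives (1.33 to 2.74). Among these, single-base changes only held the same calls as the main result, so that alternative could not differ. The ratio of ratios was 1.14 without Vmn1r, Vmn2r, Mrgpr and Zfp genes. Without all 15 families it reversed to 0.716, where the removed genes hold 75.4% of missense calls. The RNA agreement difference of 3.04 points was past the threshold for the block at 15 to 25 Mb alone (17.6), without the 4 families (11.6), without all 15 (13.0), against other chromosomes (3.16) and for any RNA variant call (7.72). It reversed for the block at 40 to 50 Mb alone (-1.11), homozygous calls (-8.05), heterozygous calls (-9.41) and coding calls (-10.3). In 5 other alternatives it was 1.78 to 6.91. The median per window of 490 calls was 644.2 per Mb in 5 Mb windows and 74.5 for coding calls. The cause of these shifts was not tested.

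No paired analysis was possible because exome and RNA were read in 1 library each, with no replicates. For the same reason no replicate was left out. RNA depth limits the comparison with RNA to 9.18% of the block calls.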
